A study of Mus musculus with 656 samples.

Results

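The libraries described here are of 3T3 cells, a line of mouse embryonic fibroblasts, labelled as given the cytokine interleukin-1β (IL-1β) for 60 min, set against cells that received no stimulus. Libraries were chosen by the sample descriptions and the labels for stimulus, inhibitor concentration and time, which gave 8 libraries in 2 of the 41 groups of the series, each group with 4 libraries. They were 4 labelled IL-1β at 60 min and 4 unstimulated. The cells labelled IL-1β were given 1 ng/ml after medium with 0 µM of SC-514, which inhibits the kinase IKKβ, for 1 hour. Libraries labelled IL-1β at 15 and at 120 min, also at 0 µM and with 4 libraries each, served as earlier and later points, and 4 libraries labelled TNF-α (10 ng/ml, 60 min, 0 µM) served only for a check of the labels. The unstimulated libraries are labelled as having no stimulus, 0 µM inhibitor and time 0. The labels name no genotype and no vehicle for the 0 µM groups, they are silent on whether a group's 4 libraries are separate cultures, and no unstimulated group was sampled at a later time. Transcripts were measured by TagSeq, which sequences the 3′ ends of polyadenylated RNA and gives a number of reads per gene.

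IL-1β binds the receptor pair encoded by Il1r1 and Il1rap, which recruits the adaptor MyD88 and the IRAK kinases and activates the IKK complex and the MAP kinases. IKKβ marks the IκB proteins for degradation, and the NF-κB dimers they held then enter the nucleus and bind κB sites in DNA. The MAP kinases drive AP-1 and EGR transcription factors and slow the decay of unstable mRNAs. In fibroblasts this pathway is known for the release of chemokines, IL-6 and prostaglandins.

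Library totals were 1481579 to 1633647 counts in the libraries labelled IL-1β and 1175551 to 1350514 in the unstimulated ones, so that 3 counts equalled 1.85 to 2.06 CPM in IL-1β-labelled libraries and 2.15 to 2.58 CPM in unstimulated ones. CPM is the usual count scaled to a common library total, here after TMM (trimmed mean of M-values) scaling. Library 1 stood apart by its number of genes with a count in both groups, 14563 against 13737 to 13875 in the other libraries labelled IL-1β, and 14475 against 13709 to 13933 in the other unstimulated ones. Mitochondrial transcripts were 0.539 to 0.626% of counts labelled IL-1β and 0.596 to 0.697% of unstimulated counts. The 9 fibroblast markers summed to 8697 to 9401 CPM in IL-1β-labelled libraries and to 9055 to 9489 CPM in unstimulated ones, led by Col1a2 and Sparc. Of 22 markers of other cell types 20 were in the table, with sums of 169.5 to 183.4 CPM in IL-1β-labelled libraries and 168 to 197 CPM in unstimulated ones, mostly from Lpl, while Adgre1, Cdh5, Epcam and Gfap were at 0 in all 8 libraries. In bulk RNA, fewer cells of a kind and less RNA per cell cannot be told apart.

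The labels conflict on the stimulus. By the sample descriptions the libraries used here received IL-1β, while the same column prefix stands for TNF-α in the sample titles, so the libraries are called "labelled IL-1β" throughout. The column names also give the unstimulated libraries another prefix than those labelled IL-1β, and a difference between these library sets cannot be told apart from that of the stimulus in this comparison. The libraries labelled IL-1β at 15 and 120 min carry the same prefix as those at 60 min. Nfkbiz encodes IκBζ, a nuclear IκB protein known to be induced by IL-1 and by bacterial lipopolysaccharide and hardly by TNF. It was at 58.6, 45.7, 48.0 and 58.9 CPM in the libraries labelled IL-1β at 60 min, against 33.0, 29.2, 41.9 and 24.1 CPM in the unstimulated ones. The libraries labelled TNF-α at 60 min held 466.5, 510.1, 482 and 468 CPM. The level labelled IL-1β was lower than that labelled TNF-α by a log2 difference of -3.19 (SE 0.14, edgeR adjusted p = 9.15e-43). This order goes against the stimulus labels, given that background. Of the results below, none was made without these libraries. For 60 min against unstimulated, the count of genes with columns matched by title is given beside the count by label. Counts of lists and sequence motifs, and those against 15 min and at 120 min, are by label only.

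At 60 min, 295 of the 10766 genes tested were higher in the libraries labelled IL-1β than in the unstimulated ones, which is 2.74% of them, and 67 were lower, which is 0.622% (edgeR's quasi-likelihood test, adjusted p under 0.05). The higher genes were led by chemokines, cytokines, the feedback genes of NF-κB and the immediate early transcription factors, all described below. In 268 of the 295, every library labelled IL-1β was above every unstimulated library, against 676 of all genes tested, or 6.28%. The change was at least 2-fold for 107 of the higher genes, at least 4-fold for 38 and at least 8-fold for 20. For the lower genes it was at least 2-fold in 11. The median log2 change was 0.78 for the higher genes, -0.56 for the lower ones and -0.001 for all genes tested. The call held without any 1 of the 8 libraries for 169 higher genes and 15 lower ones. Without library 1 labelled IL-1β, 248 genes were higher and 112 lower, and without library 2 labelled IL-1β 212 and 36. Without unstimulated library 1 the counts were 227 and 57. With columns matched by the prefix in the titles, so that the libraries labelled TNF-α at 60 min took the place of those labelled IL-1β, 448 genes were higher and 135 lower. Of the calls by label, 237 of the 295 higher and 20 of the 67 lower were among them.

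**Figure D1:**
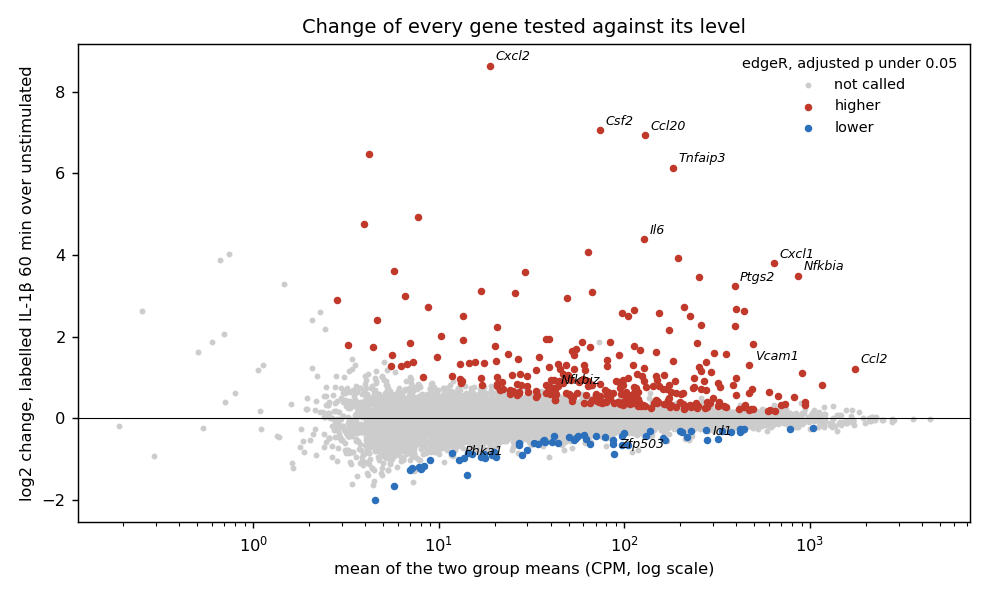
Log2 change between libraries labelled IL-1β at 60 min and unstimulated libraries (y axis) against the mean of the 2 group means (x axis, CPM on a log scale), 1 point for each of the 10766 genes tested. The 295 higher genes (red) reach to 8.63 and the 67 lower genes (blue) to -2.00; the fitted value of Cxcl2 depends on a prior count, since it had no count in the unstimulated libraries.

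Among the genes of NF-κB itself, those for its inhibitors led. Of the 11 genes for NF-κB subunits and IκB proteins, all tested, 7 rose and 0 fell, with a median log2 change of 0.77. Counts of this list and of those below are to be set against all genes tested, of which 2.74% were higher and 0.622% lower. Nfkbia, which encodes IκBα, the inhibitor that is degraded first and made anew under NF-κB, was at 1643, 1530, 1612 and 1537 CPM in the libraries labelled IL-1β, against 142, 135, 129.9 and 152 CPM in the unstimulated ones. All libraries labelled IL-1β stood far above the unstimulated ones, and the libraries of a group were close to each other (log2 change 3.50, SE 0.14, edgeR adjusted p = 4.25e-45). Bcl3, which encodes a nuclear IκB family member, averaged 100.3 ± 14.5 CPM in IL-1β-labelled libraries and 29.8 ± 5.14 CPM in unstimulated ones (SD, n = 4 each). Nfkbie, the gene of IκBε, averaged 117 ± 15.0 CPM in IL-1β-labelled libraries and 43.7 ± 15.1 CPM in unstimulated ones. Rel, which encodes the subunit c-Rel, averaged 55.5 ± 13.3 CPM in IL-1β-labelled libraries and 23.1 ± 5.88 CPM in unstimulated ones. For these 3 genes the log2 changes were 1.74, 1.43 and 1.27, and no library of one group reached into the other. Nfkbib, Nfkbiz and Rela rose by 0.77, 0.72 and 0.39 on the log2 scale, and the call of Nfkbiz was lost without library 1 or 4 labelled IL-1β or without unstimulated library 2 or 4. Nfkb1, Nfkb2 and Relb, with log2 values of 0.39, 0.33 and 0.15, did not pass the test. Nor did Nfkbid, another IκB family gene, with a log2 value of 2.18 (SE 0.71, edgeR adjusted p = 0.0653).

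Promoters of genes that rose most are shown because they hold matches to the κB consensus, the sequence that NF-κB dimers bind. Each run below is the 150 bases before the RefSeq start on the gene's own strand (build GRCm38.p6), with the match in capitals. In Cxcl2 and Cxcl1 the matches on both strands overlap and are shown as 1 stretch.
Nfkbia, chr12:55492648-55492797, minus strand: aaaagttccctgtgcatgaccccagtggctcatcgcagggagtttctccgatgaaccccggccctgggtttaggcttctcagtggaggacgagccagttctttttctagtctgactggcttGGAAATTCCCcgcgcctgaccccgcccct
Tnfaip3, chr10:19015411-19015560, minus strand: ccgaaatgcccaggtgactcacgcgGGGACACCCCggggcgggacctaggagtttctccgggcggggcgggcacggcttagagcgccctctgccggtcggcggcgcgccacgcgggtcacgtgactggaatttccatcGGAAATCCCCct
Cxcl1, chr5:90891095-90891244, plus strand: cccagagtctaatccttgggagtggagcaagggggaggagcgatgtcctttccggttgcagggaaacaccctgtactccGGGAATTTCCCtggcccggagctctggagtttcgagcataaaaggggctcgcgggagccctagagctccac
Cxcl2, chr5:90903749-90903898, plus strand: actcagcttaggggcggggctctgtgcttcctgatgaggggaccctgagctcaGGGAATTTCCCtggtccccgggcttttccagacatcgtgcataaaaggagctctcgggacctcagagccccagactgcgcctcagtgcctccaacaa
Ccl20, chr1:83116616-83116765, plus strand: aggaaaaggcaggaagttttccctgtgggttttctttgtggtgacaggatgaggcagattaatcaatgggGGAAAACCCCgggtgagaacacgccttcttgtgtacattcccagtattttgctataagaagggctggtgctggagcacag
Il6, chr5:30012964-30013113, plus strand: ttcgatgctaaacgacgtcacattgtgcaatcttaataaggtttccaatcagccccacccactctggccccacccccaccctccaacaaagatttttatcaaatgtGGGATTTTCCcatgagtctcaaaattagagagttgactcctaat
The neighbours Cxcl1 and Cxcl2 hold the same 11-base stretch in capitals. Over windows from 250 bases before to 50 after the start, searched on both strands, 38 of the 221 higher genes with a RefSeq window held the κB consensus, or 17.2%. Among genes higher by at least 4-fold it was 11 of 29, or 37.9%. It was 2 of 53 lower genes, or 3.77%, and 540 of the 8497 tested genes with a window, or 6.36%, while 4.51% of all 32851 RefSeq windows held it. The AP-1 letters TGANTCA were in 9.95% of higher, 24.1% of at least 4-fold higher, 1.89% of lower and 5.97% of all tested genes. The TATA letters TATAAA, searched on the gene's strand only, were in 12.7, 27.6, 7.55 and 5.23% of the same sets. The letters TGACGTCA of the cyclic AMP response element were in 6.79, 6.90, 0 and 3.75% of them. These are matches of letters and not measured binding.

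Of the 17 tested genes that act as feedback on cytokine signalling, 5 rose and 0 fell. Tnfaip3, which encodes the ubiquitin-editing enzyme A20 that shuts off IKK, was at 394, 346, 366 and 329 CPM in libraries labelled IL-1β, against 5.75, 2.58, 5.03 and 6.42 CPM in unstimulated ones. Its log2 change of 6.14 (SE 0.27, edgeR adjusted p = 1.07e-42) was the largest of the 17. Rnf19b, a ubiquitin ligase gene, Birc3, which encodes the ligase cIAP2, and Tnip1, the gene of an A20-binding protein, rose by 1.04, 0.95 and 0.93 on the log2 scale. Traf1, an adaptor gene, rose by 0.60, a call that ended without any 1 of 6 of the 8 libraries. The other 12 genes, among them the deubiquitinase genes Cyld (-0.05) and Otud7b (0.08), did not pass the test and lay between -0.26 and 0.55. Of 21 genes for the IL-1 and TNF receptors, their adaptors and kinases, 3 rose and 0 fell, or 14.3% higher against 2.74% of all genes tested, with a median of 0.03. They were Map3k8, which encodes the kinase TPL2, at 10.5 ± 2.92 CPM in IL-1β-labelled libraries and 3.98 ± 0.705 CPM in unstimulated ones, Il1rap with a log2 change of 0.40 and Tnfrsf1b with 0.59, and each call was lost without 1 library or another. Ikbkb, the gene of IKKβ, averaged 47.5 ± 11.2 CPM in IL-1β-labelled libraries and 54.5 ± 11.6 CPM in unstimulated ones, with overlapping groups (log2 difference -0.20, edgeR adjusted p = 0.565). Myd88 and Irak1 had log2 values of 0.03 and -0.01.

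Secreted cytokines and growth factors were among the genes with the largest change. Of 12 tested genes 8 rose and 0 fell, with a median log2 change of 2.44, and 8 more of the list were not tested or not in the table. Genes were tested if enough libraries of the series, of whichever group, held them. Csf2, Il1a, Il23a and Csf3 were almost absent without stimulus and came in through other libraries. They could hardly fall, so the counts and the median depend in part on this filter. Csf2, which encodes the myeloid growth factor GM-CSF, was at 143, 130.5, 159 and 151 CPM in libraries labelled IL-1β, against 0.718, 1.72, 0.838 and 0.802 CPM in unstimulated ones. It was close to absent without stimulus and rose by 7.06 on the log2 scale (SE 0.37, edgeR adjusted p = 5.97e-36). Il6 was at 293, 249.9, 199 and 233 CPM in libraries labelled IL-1β, against 12.2, 12.9, 17.6 and 4.01 CPM in unstimulated ones, a log2 change of 4.38 (SE 0.29). The IL-6 family cytokine gene Lif was at 525, 469.8, 427 and 440.3 CPM in libraries labelled IL-1β, against 55.3, 32.7, 44.4 and 34.5 CPM in unstimulated ones, a log2 change of 3.46. In each of these 3 genes the lowest library labelled IL-1β was several times above the highest unstimulated one. Il1a, the gene of IL-1α, another ligand of the same receptor, was at 8.63, 10.4, 7.55 and 6.85 CPM in IL-1β-labelled libraries and had no count in the 4 unstimulated libraries. Set against 3 counts over the group, it was at least 14-fold higher. Il23a, which encodes a subunit of IL-23, had 91 counts labelled IL-1β and 2 unstimulated, a ratio of 37.4 with a 95% counting interval of 10.1 to 314. Csf3, the gene of the granulocyte growth factor, had 48 counts labelled IL-1β and 1 unstimulated, a ratio of 39.5 (6.75 to 1590). Its libraries labelled IL-1β ran over a wide range, 14.8, 3.92, 3.43 and 8.90 CPM. Csf1, the macrophage growth factor gene, averaged 601 ± 81.6 CPM in IL-1β-labelled libraries and was already high in unstimulated ones, at 367 ± 12.3 CPM (log2 change 0.71). Il11, of the IL-6 family too, rose by 1.42.

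Of the 15 tested chemokine genes 10 rose and 0 fell, with a median log2 change of 1.10. Here too Cxcl2 and Ccl20, almost absent without stimulus, were tested through other libraries and could hardly fall. Chemokines direct the migration of white blood cells, and the products of Cxcl1, Cxcl2 and Cxcl5 bind the neutrophil receptor CXCR2. Cxcl1 was at 1100, 1194, 1211 and 1265 CPM in libraries labelled IL-1β, against 74.0, 85.2, 97.2 and 86.7 CPM in unstimulated ones (log2 change 3.80, SE 0.17). Its neighbour Cxcl2 was at 53.6, 28.7, 36.4 and 32.9 CPM in IL-1β-labelled libraries and had no count in any unstimulated library, which makes it at least 63.6-fold higher. Cxcl5, of the same group, was at 677, 638, 612 and 678 CPM in libraries labelled IL-1β, against 126, 129.9, 129 and 154 CPM in unstimulated ones (log2 change 2.27). In each of these 3 genes all libraries labelled IL-1β were above all unstimulated ones. Ccl20, which attracts cells with the receptor CCR6, was at 234, 251, 263 and 277 CPM in libraries labelled IL-1β, against 2.87, 1.72, 0 and 3.21 CPM in unstimulated ones. Its log2 change was 6.93 (SE 0.38, edgeR adjusted p = 1.42e-33). The monocyte-attracting genes Ccl2 and Ccl7 were high in both groups. Ccl2 averaged 2447 ± 99.2 CPM in IL-1β-labelled libraries and 1049 ± 75.0 CPM in unstimulated ones. Ccl7 averaged 1240 ± 39.1 CPM in IL-1β-labelled libraries and 578 ± 39.5 CPM in unstimulated ones, and the log2 changes of both were 1.22 and 1.10. Cxcl9, an attractant of T cells, was at 25.9, 8.48, 5.49 and 6.85 CPM in libraries labelled IL-1β, against 1.44, 2.58, 0.838 and 0.802 CPM in unstimulated ones. Library 1 was far above the other 3, and the call (edgeR adjusted p = 0.0428) was lost without any 1 of 6 of the 8 libraries. The medians of the cytokine and chemokine lists are the same with Il1a and Cxcl2 at their bounds. Both bounds lie above the median of their list, so this had to be so.

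**Figure D2:**
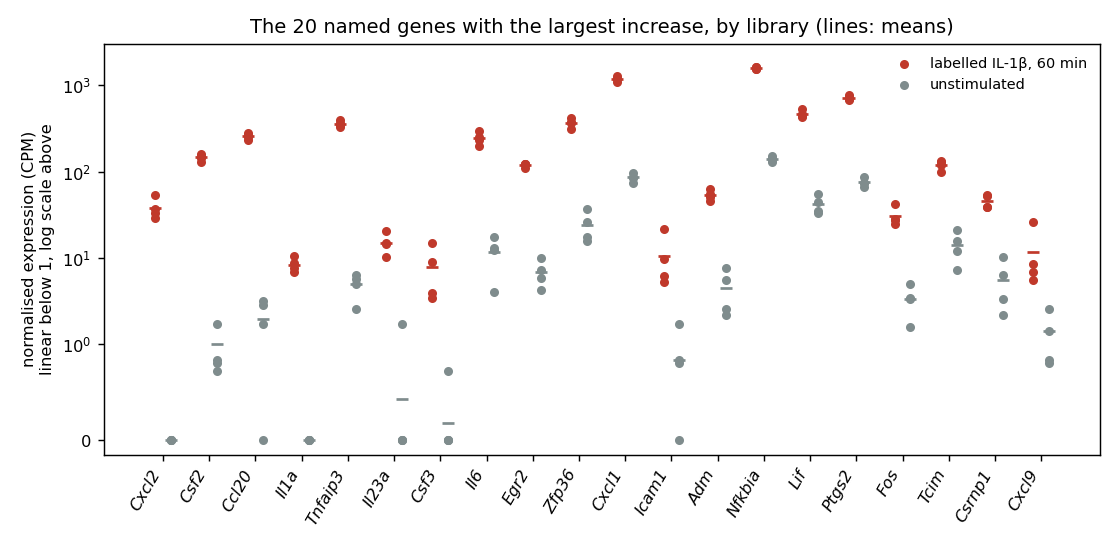
Normalised expression (CPM, y axis, linear below 1 and on a log scale above) of the 20 named genes with the largest fitted increase, with libraries labelled IL-1β at 60 min (red, left) beside unstimulated ones (grey, right); points are libraries and lines group means. The genes were chosen among those whose groups do not overlap, and Cxcl2 and Il1a had no count in the unstimulated libraries.

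Adhesion molecules and effectors of inflammation rose widely, with 15 of 24 tested genes higher and 0 lower (median log2 change 1.04). Ptgs2, which encodes the cyclooxygenase COX-2, was at 760, 732, 668 and 684 CPM in libraries labelled IL-1β, against 66.1, 74.0, 73.8 and 86.7 CPM in unstimulated ones (log2 change 3.24, SE 0.19). Ptges, the gene of the synthase that acts after it to make prostaglandin E2, was at 539, 468, 427 and 401 CPM in libraries labelled IL-1β, against 167, 147, 137 and 148 CPM in unstimulated ones (log2 change 1.61). Both genes were higher in every library labelled IL-1β than in any unstimulated one. Vcam1, an adhesion receptor for leukocytes, was at 782, 654, 625 and 615 CPM in libraries labelled IL-1β, against 273, 286, 259 and 268 CPM in unstimulated ones (log2 change 1.30). Icam1, another one, was much rarer, at 21.6, 5.22, 9.61 and 6.16 CPM in libraries labelled IL-1β, against 0, 1.72, 0.838 and 0.802 CPM in unstimulated ones. Its values are near those of 3 counts, and its log2 change of 3.60 has an SE of 0.59. Ptx3, which encodes the soluble pattern receptor pentraxin 3, averaged 773 ± 19.1 CPM in IL-1β-labelled libraries and 217 ± 11.1 CPM in unstimulated ones. Genes of plasminogen activation and clotting, Plau, Plaur and F3, rose by 1.19, 0.73 and 1.17 on the log2 scale, and Saa3, an acute phase gene, by 1.78. Adm, which encodes the vasodilator adrenomedullin and is in no list, was at 63.5, 50.2, 55.6 and 45.2 CPM in libraries labelled IL-1β, against 2.15, 2.58, 7.54 and 5.62 CPM in unstimulated ones (log2 change 3.58). Tcim, a regulator gene that is in no list either, rose by 3.08. The metalloprotease genes Mmp9, Mmp10 and Mmp13 had log2 values of -0.18, 0.72 and 0.41 and did not pass the test, while Mmp3 rose by 0.58.

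Most of the AP-1 and EGR transcription factor genes of the immediate early response passed the test. Of 13 tested AP-1 and EGR genes 9 rose and 0 fell, with a median log2 change of 1.68, and of 30 other early regulators 16 rose and 0 fell, with a median of 0.71. Egr1 was at 412, 309, 349 and 386 CPM in libraries labelled IL-1β, against 54.6, 59.4, 57.0 and 48.1 CPM in unstimulated ones (log2 change 2.73, SE 0.24). Egr2, of the same zinc finger family, was at 124, 111, 123 and 123 CPM in libraries labelled IL-1β, against 10.1, 4.30, 5.87 and 7.22 CPM in unstimulated ones (log2 change 4.08). Fos, which encodes an AP-1 subunit, was rarer, at 27.7, 24.8, 28.1 and 41.8 CPM in libraries labelled IL-1β, against 5.03, 3.44, 3.35 and 1.60 CPM in unstimulated ones (log2 change 3.13, SE 0.46). The Jun family genes that encode its partners rose to different degrees. Junb rose by 2.28, Jun by 1.68 and Jund by 0.65 on the log2 scale, and Jun was at 174, 168, 209 and 191 CPM in libraries labelled IL-1β, against 52.4, 59.4, 62.9 and 57.0 CPM in unstimulated ones. Ier3, a stress-inducible gene linked to survival, was at 746, 723, 775 and 787 CPM in libraries labelled IL-1β, against 119, 121, 112 and 135 CPM in unstimulated ones (log2 change 2.63). Irf1, which encodes an interferon regulatory factor and is known as an NF-κB target, was at 767, 625, 694 and 663 CPM in libraries labelled IL-1β, against 109.9, 117, 105 and 94.7 CPM in unstimulated ones (log2 change 2.69). Csrnp1, a nuclear protein gene, Btg2, an antiproliferative gene, and Gadd45b, a stress gene, rose by 3.06, 2.50 and 2.59. The nuclear receptor genes Nr4a1, Nr4a2 and Nr4a3 rose by 1.84, 1.34 and 1.74, and the call of Nr4a3 was lost without any 1 of 4 libraries. Klf10, Klf6, Klf9 and Cebpb rose by 1.88, 0.98, 0.73 and 0.53. Klf2, Klf4, Klf5, Srf and Cebpd did not pass the test, with log2 values of 0.74, -0.40, 0.55, 0.03 and 0.10.

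Of 12 regulators of mRNA decay, all tested, 6 rose and 0 fell (median log2 change 0.32). One of the 6, Elavl1 (0.375), encodes HuR, which is known to stabilise mRNAs. Zfp36 encodes tristetraprolin, which binds AU-rich elements in 3′ UTRs and recruits deadenylases. It was at 362, 307, 371 and 416 CPM in libraries labelled IL-1β, against 15.8, 37.0, 26.0 and 17.6 CPM in unstimulated ones (log2 change 3.93, SE 0.23). Zc3h12a, which encodes the endonuclease Regnase-1, was at 40.7, 26.1, 32.9 and 41.1 CPM in libraries labelled IL-1β, against 7.90, 14.6, 13.4 and 11.2 CPM in unstimulated ones (log2 change 1.59). The relatives Zfp36l1 and Zfp36l2 were abundant without stimulus and rose by 0.63 and 0.54. Rc3h1 and Rc3h2, which encode the Roquin proteins, had log2 values of -0.20 and -0.24.

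The AU-rich nonamer TTATTTATT, the sequence that tristetraprolin prefers, was looked for in the longest annotated 3′ UTR of each gene (GENCODE M21). It was in 63 of the 292 higher genes with a 3′ UTR, or 21.6%, and in 18 of the 38 higher by at least 4-fold, or 47.4%. In lower genes it was 1 of 66, or 1.52%, and in all tested genes 923 of 10591, or 8.71%. The median 3′ UTR was 1376 bases in higher, 1066.5 in at least 4-fold higher, 873 in lower and 1437 in all tested genes. Whole genes of these sets had median lengths of 14159, 4093, 12124 and 24650 bp, so the genes with the largest rise were short. Of the 20 leading genes 12 hold the nonamer. The first site of 5 of them is shown, in capitals within 9 bases on either side, with its distance from the start of the 3′ UTR.
Csf2, base 244 of 320: tttaaatatTTATTTATTtatttattt
Cxcl2, base 885 of 1497: agagttcacTTATTTATTtatctatgt
Cxcl1, base 105 of 595: tttatgtatTTATTTATTccacaaagt
Zfp36, base 592 of 777: atgacgactTTATTTATTgtattaaga
Nfkbia, base 299 of 515: gaccacgttTTATTTATTgtgcttttg
With overlapping matches counted apart, as in the run shown for Csf2, Csf2 and Cxcl2 each hold 4 such sites and Cxcl1 holds 2. Zfp36, which encodes the protein known to bind them, holds 1. Zfp36 had no κB match in its promoter but a CArG box, the sequence bound by serum response factor, shown in capitals in the 150 bases before its start.
Zfp36, chr7:28379229-28379378, minus strand: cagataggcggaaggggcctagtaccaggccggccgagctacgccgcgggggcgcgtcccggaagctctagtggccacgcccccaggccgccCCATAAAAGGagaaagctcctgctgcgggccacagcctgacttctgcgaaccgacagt
The CArG box was in 2.26% of higher, 6.90% of at least 4-fold higher, 0% of lower and 1.48% of all tested genes with a promoter window.

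Of 19 MAP kinase phosphatases and ERK feedback genes, all tested, 8 rose and 0 fell (median log2 change 0.61). Dusp1, the gene of a phosphatase of p38 and JNK, averaged 84.4 ± 8.12 CPM in IL-1β-labelled libraries and 25.5 ± 6.69 CPM in unstimulated ones. Dusp8 and Dusp5 rose by 2.50 and 1.31 on the log2 scale, while Dusp4 and Dusp6 had log2 values of -0.01 and -0.02 and did not pass the test. Of the ERK feedback genes, Spry2 rose by 0.82, while Spry1 (-0.745) and Spry4 (0.61) did not pass. Ereg, Areg and Hbegf, which encode ligands that activate the EGF receptor, rose by 2.16, 1.91 and 0.92, the last a call lost without 1 library, and Errfi1, an inhibitor of that receptor, by 1.03. Of 20 JAK-STAT genes, all tested, 6 rose and 0 fell, of which 3 encode inhibitors and 3 receptors. Cish, Socs1 and Socs3, which block cytokine receptors, rose by 2.23, 1.47 and 0.89, and Cish averaged 34.0 ± 5.71 CPM in IL-1β-labelled libraries and 7.34 ± 2.22 CPM in unstimulated ones. The call of Socs3 ended without any 1 of 6 of the 8 libraries. The interferon receptor genes Ifngr1, Ifnar1 and Ifnar2 rose by 0.49, 0.57 and 0.64, and the call of Ifnar1 was lost without 1 library. Stat3 had a log2 value of 0.15.

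Of 14 tested survival and death regulators 5 rose and 0 fell, or 35.7% higher against 2.74% of all genes tested. Pim1, which encodes a survival kinase, was at 294, 219.9, 268 and 267 CPM in libraries labelled IL-1β, against 38.8, 44.7, 46.1 and 45.7 CPM in unstimulated ones (log2 change 2.58, SE 0.16). The members that rose act in both directions, since Bcl2l11 and Fas, which promote cell death, rose by 1.04 and 0.52 beside Pim3 (0.70) and the signalling adaptor gene Bcl10 (0.60). The calls of Bcl2l11 and Fas were lost without 1 library or another. Bcl2, Bcl2l1 and Mcl1 had log2 values of -0.46, 0.06 and 0.23. Of 16 tested targets of BMP, TGF-β, Notch and Wnt signalling 5 rose, or 31.2%, and 1 fell. Smad7, an inhibitor of TGF-β receptors, Tgif1 and Skil, which encode repressors of SMAD proteins, rose by 1.32, 1.05 and 0.97. The BMP targets Id3 and Id1, inhibitors of DNA binding, moved apart. Id3 averaged 412 ± 17.4 CPM in IL-1β-labelled libraries and 243 ± 7.22 CPM in unstimulated ones, while Id1 averaged 228 ± 10.5 CPM in IL-1β-labelled libraries and 330.5 ± 5.80 CPM in unstimulated ones. Dact1, a Wnt pathway regulator, averaged 11.96 ± 2.96 CPM in IL-1β-labelled libraries and 18.6 ± 4.18 CPM in unstimulated ones, and its groups overlapped (edgeR adjusted p = 0.194). Of 15 p53 targets, all tested, 4 rose, or 26.7%, and 0 fell, with a median of 0.06. They were Btg2, Plk2 (0.92), Ddit4 (0.82) and Cdkn1a (0.33), and the p53 feedback gene Mdm2, with 0.29, was not among them. Btg2 is also counted among the other early regulators above. The call of Cdkn1a was lost without unstimulated library 3.

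In the lists that follow, counts are to be read against the 2.74% of all genes tested that were higher and the 0.622% that were lower. Of 24 cell cycle genes, all tested, 0 passed the test in either direction, and the member with the smallest p, the mitotic kinase gene Aurka, averaged 83.0 ± 10.0 CPM in IL-1β-labelled libraries and 55.6 ± 10.6 CPM in unstimulated ones, with overlapping groups. Of the 26 genes in the list of interferon-stimulated genes 0 rose and 1 fell, with a median of -0.31. This list does not hold Cxcl9, Cxcl10, Irf1 or Socs1, which are counted in other lists and were called higher. Cxcl10 had a log2 change of 2.505 (SE 0.58, edgeR adjusted p = 0.00219). The 1 that fell was Bst2, which encodes the antiviral protein tetherin. It was at 296, 240.1, 232 and 286 CPM in libraries labelled IL-1β, against 341, 350.1, 447 and 356 CPM in unstimulated ones. The call (edgeR adjusted p = 0.0342) was lost without unstimulated library 3 or without library 2 or 3 labelled IL-1β. Of 21 tested matrix and contractile genes 2 rose and 0 fell. They were Col5a1 and Thbs1, with log2 changes of 0.33 and 0.40, and both calls were lost without 1 library or another. Of 17 tested nuclear-encoded respiratory chain genes and of 7 tested markers of other cell types 0 passed the test. Medians of the 4 lists other than the interferon list lay between -0.02 and 0.20.

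**Figure D3:**
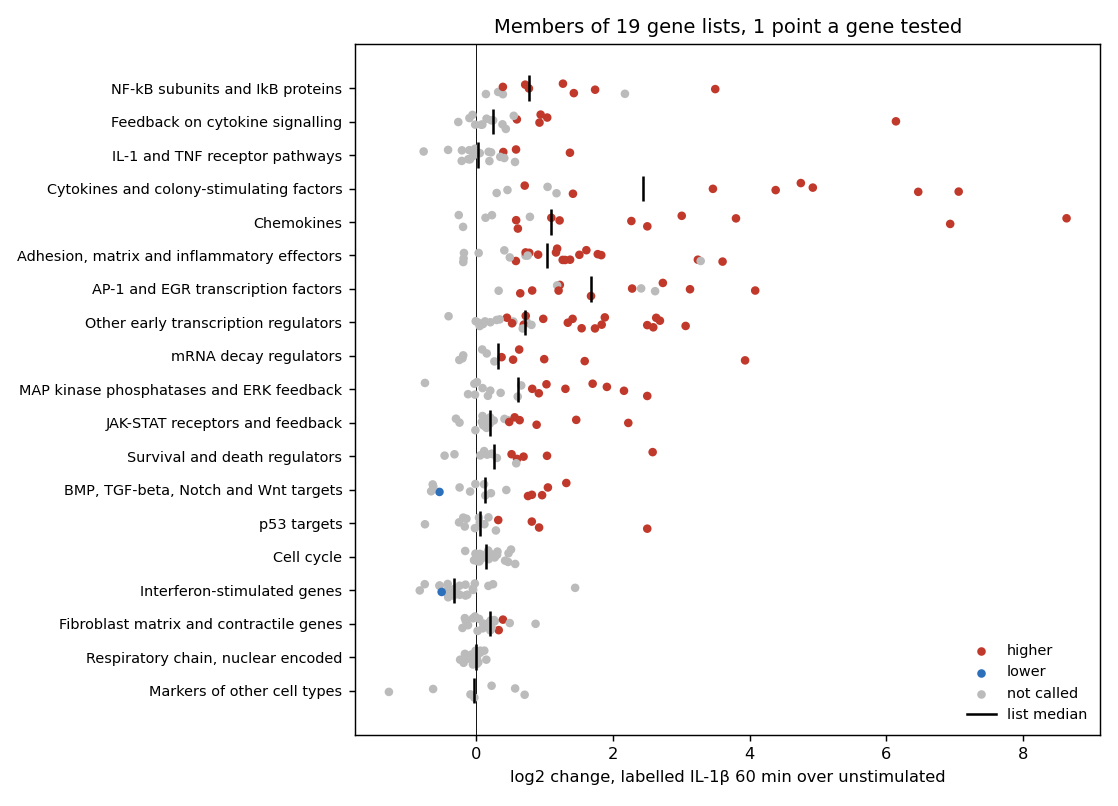
Log2 change between libraries labelled IL-1β at 60 min and unstimulated libraries (x axis) of the members of 19 gene lists, 1 point for each gene tested, red where higher, blue where lower and grey where the test was not passed; black bars are list medians. Medians run from -0.31 for interferon-stimulated genes to 2.44 for cytokines, and the 2 blue points are Id1 and Bst2.

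Set against 15 min, where the libraries share the column prefix, 196 genes were higher at 60 min, or 1.82% of those tested, and 10 were lower, or 0.0929%. This comparison shares its 60 min libraries with the one above, so the 2 are not independent. Of the 295 higher genes 168 were also called higher against 15 min, 280 had the same sign, and 0 were called lower. Tnfaip3 was at 6.83 ± 2.10 CPM at 15 min (log2 change of 5.70 at 60 min against 15 min), Csf2 at 1.97 ± 1.32 CPM (6.12), Ccl20 at 2.76 ± 1.83 CPM (6.46) and Nfkbia at 161 ± 17.1 CPM (3.30). Cxcl2 and Il1a had no count at 15 min. In contrast, of the 67 lower genes 3 were also called lower against 15 min, although 61 had the same sign. They were Zfp503, Id1 and Commd5, named here after their values were seen.

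From 60 to 120 min 302 genes were higher, or 2.81%, and 155 were lower, or 1.44%. Of the 295 genes higher at 60 min 63 were higher still at 120 min, 40 were lower again and 192 passed the test in neither direction. Over the times sampled the highest mean came at 60 min for 89 of them, at 120 min for 120, at 360 min for 78 and earlier for 8. The 295 genes were chosen by these same 60 min libraries. That choice favours a highest mean at 60 min and a lower level at 120 min, so these counts are not independent of it. Lower levels at 120 than at 60 min were seen in transcription factors and decay regulators. Of the 13 AP-1 and EGR genes 5 were lower and 0 higher, of the 30 other early regulators 10 were lower and 4 higher, and of the 12 decay regulators 3 were lower and 0 higher. Zfp36 averaged 176 ± 49.5 CPM at 30 min, 364 ± 44.4 at 60 min and 74.7 ± 16.02 at 120 min (log2 change -2.29 from 60 to 120 min). Fos averaged 26.1 ± 9.44 CPM at 30 min, 30.6 ± 7.59 at 60 min and 5.06 ± 0.913 at 120 min, where it was back near its unstimulated level of 3.36 ± 1.398. Egr1 and Btg2 had log2 changes of -2.17 and -2.15 over the same step. Of the 15 chemokine genes 3 were lower and 4 higher at 120 than at 60 min, and of the 17 cytokine feedback genes 1 was lower and 7 were higher. Tnfaip3, the 1 lower feedback gene, averaged 145 ± 37.1 CPM at 120 min (-1.31), Nfkbia 876 ± 129 CPM (-0.85) and Cxcl1 509.5 ± 51.5 CPM (-1.23). Other genes kept near their level, with Ccl20 at 261 ± 44.6 CPM, Ptgs2 at 737 ± 63.9 CPM and Lif at 437 ± 36.5 CPM at 120 min, and none of the 3 passed the test between 60 and 120 min. A further set was higher still. Of the 11 NF-κB and IκB genes 8 were higher and 1 lower at 120 than at 60 min, and of the 24 effectors 11 were higher and 1 lower. Tnip1 averaged 254 ± 35.3 CPM at 120 min and 83.7 ± 15.0 CPM at 60 min (log2 change 1.60), Vcam1 1080 ± 116 CPM at 120 min and 669 ± 76.9 CPM at 60 min (0.69), and Icam1 46.5 ± 9.20 CPM at 120 min and 10.6 ± 7.53 CPM at 60 min (2.09). Nfkbie and Traf1 had log2 changes of 1.15 and 1.33.

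**Figure D4:**
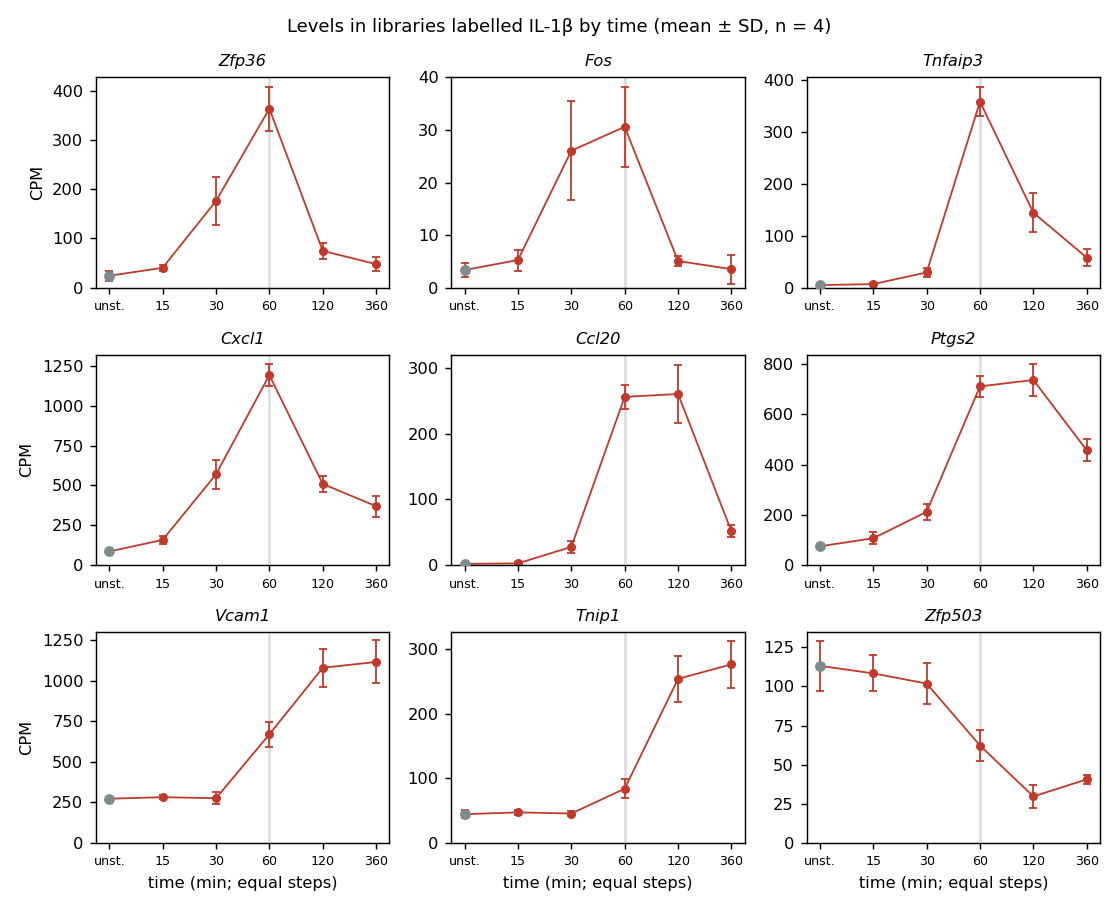
Levels (CPM, y axis, mean ± SD, n = 4) of 9 genes in unstimulated libraries (grey) and in libraries labelled IL-1β at 15, 30, 60, 120 and 360 min (x axis, equal steps). Zfp36, Fos, Tnfaip3 and Cxcl1 were highest at 60 min, Ccl20 and Ptgs2 did not pass the test between 60 and 120 min, Vcam1 and Tnip1 were higher at 120 min, and the mean of Zfp503 was lower at each time from 60 min than without stimulus.

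The largest decreases among the 67 lower genes were smaller than the largest increases. None of the 12 named by the size of their decrease held the nonamer or, among the 11 with a window, the κB consensus. Of all tested genes with a 3′ UTR 8.71% held the nonamer, and 6.36% of those with a window held the consensus. None among so few genes is near these shares. Of these 12, 9 lost their call without 1 library or another, while this was so for 1 of the 20 leading higher genes, Cxcl9. The 3 that kept it were Phka1, Nthl1 and Zfp503, and of these only Zfp503 was also called lower with columns matched by title. Phka1, which encodes a regulatory subunit of phosphorylase kinase, was at 8.63, 7.18, 8.23 and 9.59 CPM in libraries labelled IL-1β, against 16.5, 18.1, 18.4 and 16.1 CPM in unstimulated ones (log2 change -1.03, SE 0.26, edgeR adjusted p = 0.00495). At 15 min it averaged 10.3 ± 3.42 CPM, and between 15 and 60 min it did not pass the test. Nthl1, a DNA repair glycosylase gene, was at 9.86, 13.7, 13.7 and 10.96 CPM in libraries labelled IL-1β, against 23.0, 27.5, 17.6 and 25.7 CPM in unstimulated ones (log2 change -0.96). Its 15 min mean was 15.6 ± 3.94 CPM, and it too did not pass the test against 15 min. Zfp503, which encodes a zinc finger repressor, was at 64.7, 47.6, 70.0 and 66.4 CPM in libraries labelled IL-1β, against 118, 134, 101 and 99.5 CPM in unstimulated ones (log2 change -0.86, SE 0.13, edgeR adjusted p = 1.17e-07). Its change from 15 min was -0.80, and it was lower again at 120 min, at 29.6 ± 7.51 CPM. Id1 was at 226, 215, 238 and 235 CPM in libraries labelled IL-1β, against 335, 327, 324 and 336 CPM in unstimulated ones, with a log2 change of -0.53 and of -0.65 against 15 min. Commd5 changed by -0.48 and -0.59 in the same comparisons. Lfng, the gene of a Notch-modifying glycosyltransferase, averaged 13.96 ± 4.05 CPM in IL-1β-labelled libraries and 26.5 ± 3.68 CPM in unstimulated ones, and its call was lost without library 1 or 2 labelled IL-1β. The others, Ccdc22, Sft2d3, Iqcc, Gpr173, Wdr19, Pik3ip1, Toe1 and Zfp952, had means of 4.15 to 12.4 CPM in IL-1β-labelled libraries and 9.91 to 22.6 CPM in unstimulated ones, where 3 counts equal 1.85 to 2.58 CPM.

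**Figure D5:**
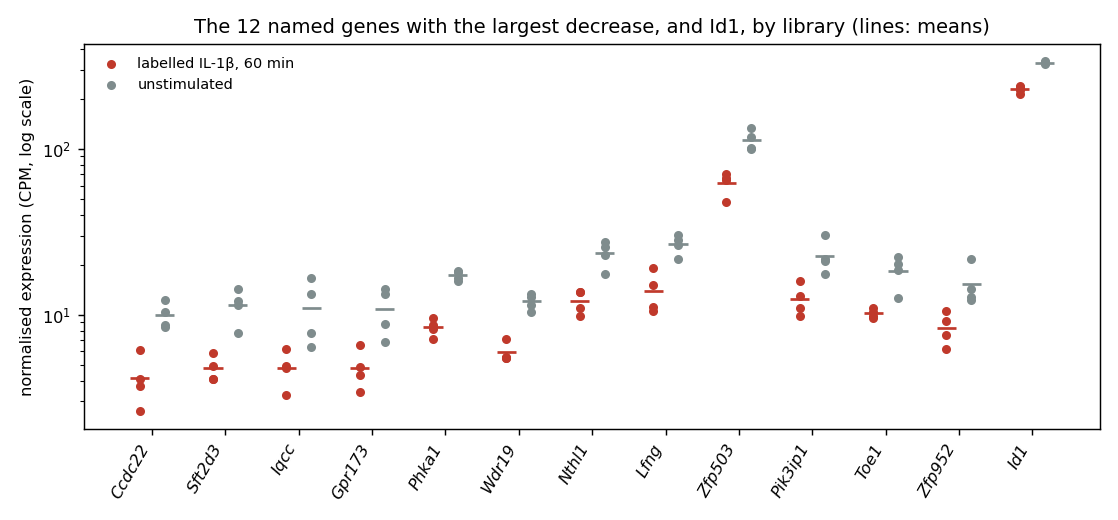
Normalised expression (CPM, y axis, log scale) of the 12 named genes with the largest decrease and of Id1, with libraries labelled IL-1β at 60 min (red, left) beside unstimulated ones (grey, right); points are libraries and lines group means. Most of these genes are low, while Zfp503 and Id1 have means of 62.2 and 228.5 CPM in libraries labelled IL-1β.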

How the data were processed

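Polyadenylated RNA of mouse 3T3 fibroblasts was measured by TagSeq. The deposited table holds whole-number read counts per gene, 22070 genes by 164 columns, as the authors made them. Alignment was with Bowtie2 to GRCm38 (mm10), per the submitters' processing notes. How reads were counted, with which annotation and with or without strand, is not given in the sources used here. Reads of overlapping genes and near-identical copies therefore cannot be told apart. The 656 sample records are 4 for each column, and every test took the column, here a library, as its unit. Columns were matched by the sample descriptions.

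The tests are from edgeR 4.0.16 (R 4.3.3). After filterByExpr by group, 10766 genes were left. This filter also keeps genes that are almost absent from the unstimulated libraries but present in other groups, and such genes can hardly be called lower. TMM scaling came next, then a robust quasi-likelihood fit of all 41 groups together, with a biological coefficient of variation of 0.0799 and 123 residual degrees of freedom. P-values were adjusted by the Benjamini-Hochberg method within each of the 3 comparisons and for the Nfkbiz check, with a threshold of 0.05, and measure only the spread between these libraries, which may be technical. Fold changes and SE are of this model, and SD is over the 4 libraries. A group without a count was set to a floor of 3 counts over the group. Intervals (95%) and floors cover counting error only. Series totals were 928906 to 2469454 counts except for 3839 and 12191 in 2 libraries, which belong to other groups and were kept. Within a group no 2 libraries were identical, and chi-squared per degree of freedom between them was 1.17 to 2.41.

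The named genes are the 20 higher and 12 lower with the largest fold change among those whose adjusted p was under 0.05, whose groups did not overlap and whose higher group averaged 5 CPM or more. Predicted models, ribosomal protein and mitochondrial genes were left out. Up to 5 members of each of 19 lists with the smallest adjusted p were added, and 21 genes always named. The groups, lists and rule were chosen with earlier results of these data known. Gene positions and 3′ UTRs are from GENCODE M21, and promoter windows and their starts from RefSeq (GRCm38.p6). For 212 gene identifiers no symbol was found.

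DESeq2 1.42.0, RLE scaling, no filter on low counts, no shallow libraries, the libraries of the 2 groups alone, the library number as a block, columns matched by title, and each library left out in turn were the alternatives.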

Additional observations from a re-analysis of the deposited data

Results flagged for a closer look

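In 190 groups of 4 libraries (the 95 named genes in both groups), 14 held a highest or lowest library whose gap to the nearest of the others took up most of the group's range (Dixon's test at its 95% critical value for 4 samples), and chance gives about 1 in 20. Library 1 labelled IL-1β was the highest for Cxcl9, at 25.89 CPM against 5.49 to 8.48 CPM in the others, for Birc3, at 72.1 against 48.3 to 49.98 CPM, and for Cish, at 42.5 against 30.1 to 31.97 CPM. Library 2 labelled IL-1β was the lowest for Egr2, at 110.9 CPM, and the highest for Wdr19, at 7.18 CPM, and for Tgif1, at 237.5 CPM.

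Among unstimulated libraries, number 2 was the highest for Csf2 and for Il23a, at 1.72 CPM in both, and the lowest for Il1rap, at 67.96 CPM. Library 1 was the highest for Csf3, at 0.718 CPM, and library 4 the highest for Cxcl5, at 154.1 CPM, and the lowest for Dusp8, at 3.21 CPM. For Il23a and Csf3 the other unstimulated libraries had no count. Any count would be flagged there, so the chance of 1 in 20 does not apply to them. Csf2 and Dusp8 were also at only a few counts in each unstimulated library, so this chance does not strictly apply to them either. Library 3 was the lowest for Id3, at 232.2 CPM, and the highest for Bst2, at 446.7 CPM against 341.1 to 356.3 CPM, and the fall of Bst2 did not pass the test without it or without library 2 or 3 labelled IL-1β. The part of single libraries in the other values was not tested beyond leaving each out in turn.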

How the results depend on the processing

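For genes higher at 60 min than without stimulus, leaving out 1 library gave 212 to 249 of them, DESeq2 gave 195 and the columns matched by title 448. For lower genes the counts were 36 to 112 with 1 library left out, 35 with DESeq2, 146 without a filter on low counts, 102 with only the libraries of the 2 groups and 135 by title. Against 15 min, 7 to 17 genes were lower with 1 library left out, 6 with DESeq2, 58 without a filter and 23 with only the libraries of the 2 groups. DESeq2 called 195 genes higher at 120 than at 60 min. By title, Il1rap changed by -0.074 and Bst2 by 0.027 (log2), with the sign turned round. The cause was not tested.

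Library numbers did not pair the 2 groups, since deviations of same-numbered libraries correlated by -0.106 to 0.258 across 7493 genes and 2 of 8 libraries were closest to their own number. The correlations were 0.0725 to 0.209 between 60 and 15 min and 0.0902 to 0.300 between 120 and 60 min, with 6 of 8 libraries closest to their own number in each, but not every pair was above 0.1. With the library number as a replicate block, 326 genes were higher and 84 lower, and the counts against 15 min were 203 and 11. From 60 to 120 min they were 324 and 168. Without a filter on low counts 353 genes were higher at 60 min, and with RLE scaling 260 were higher and 99 lower.

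The sign of Nfkbiz against the libraries labelled TNF-α was kept wherever it was fitted, and DESeq2 gave it no adjusted p. Genes at few CPM, Icam1, Csf3, Il23a and most of the named lower genes among them, are limited by depth.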

Other observations

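Of the 295 higher genes 187 were in none of the lists, and 42 of these rose by at least 2-fold. The genes named here were chosen after their values were seen, the higher ones from those 42. Rnd1, which encodes a small GTP-binding protein that loosens actin fibres, averaged 86.6 ± 12.1 CPM in IL-1β-labelled libraries and 11.3 ± 0.967 CPM in unstimulated ones (SD, n = 4 each), a log2 change of 2.94 (SE 0.22). Rgs16 and Rgs3, which encode proteins that switch off G protein signals, rose by 2.67 and 1.93 on the log2 scale, and both were lower again at 120 min. Gem, a small GTPase gene, rose by 2.03.

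Pdgfb, a platelet-derived growth factor gene, averaged 59.9 ± 12.2 CPM in IL-1β-labelled libraries and 15.6 ± 2.53 CPM in unstimulated ones. Edn1, the gene of the vasoconstrictor endothelin 1, averaged 79.7 ± 20.2 CPM in IL-1β-labelled libraries and 25.1 ± 4.68 CPM in unstimulated ones. Bdkrb1, which encodes the inducible bradykinin receptor, and the innate receptor gene Tlr2 rose by 1.84 and 1.504 and were higher still at 120 min. For each gene named in this section the call held without any single library of the 2 groups.

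Among the 15 lower genes that kept their call without any 1 library were Atp5e, Atp5k, Tomm7 and mt-Co1. Their log2 changes were -0.26, -0.34, -0.33 and -0.45, and none passed the test against 15 min. Of the 17 tested genes in the list of nuclear-encoded respiratory chain genes 0 were called, with a median of -0.005.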
